A study of Mus musculus with 17 samples.

Results

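Libraries numbered 2 were compared with libraries numbered 1 in 4 lines of C2C12 cells, a mouse myoblast line that grows in culture and can be induced to form muscle fibres. The labels name the treatment of these lines as pMSCV (the name of a retroviral vector), SRF, SRF-ICA1L or SRF-RELA, the last pair being fusions of SRF with another protein, and pMSCV and SRF are taken as the controls. Each line gave 1 library of each number, so 8 of the 17 libraries of the series entered the comparison, as 4 pairs. The groups were chosen by the measured counts. The deviations of libraries from the mean of their line, replicate 3 included, were correlated across genes between lines. The correlations lay between 0.392 and 0.789 for the 12 comparisons of same-numbered libraries of numbers 1 and 2. They lay between -0.585 and 0.114 for the 36 comparisons of differently numbered libraries, which also took in replicates 3. The replicate difference described here is therefore the contrast that chose the libraries, and it is given as a description with no p-value. SRF-FOXO1 and SRF-PDGFRB, the other fusion lines, were left out by this choice, and replicates 3 are used only where named.

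The labels give all 8 libraries the same cell line, the same serum-containing growth medium and the same extraction, and they name no drug, no differentiation step and no time point. They do not say whether a replicate number marks a culture, a passage, a day or a sequencing run, whether libraries of 1 line came from separate cultures, or whether a line was 1 clone or a pool. Any p-value below therefore measures only the spread between these libraries, which may be technical. SRF (serum response factor) is a transcription factor that binds CArG boxes and drives genes of the actin cytoskeleton, muscle contraction and the immediate-early response to growth factors.

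The comparison bears on how far libraries of 1 line differed in state. Growing myoblasts need a high output of ribosomes, DNA replication proteins and sterols, and they lower these programmes as they become dense, are starved of growth factors or leave the cell cycle. Cells in culture also carry a circadian clock, in which the factors encoded by Arntl and Clock drive the Per, Cry, Nr1d and Dbp genes. Serum, mechanical stress and handling can each induce immediate-early genes within minutes. These are facts about such cells in general and were not tested as causes here.

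Levels are given as CPM, a gene's share of the library in parts per 1000000 counts, with the library size scaled by edgeR's TMM factor, which allows for libraries of unlike composition. A difference is a log2 fold change, replicate 2 minus replicate 1, from an edgeR quasi-likelihood fit with the line as a block (n = 4 pairs). It is followed by a standard error (SE), the size of the difference divided by the square root of the test's F statistic. That SE rests on a variance shared in part across genes and is not the standard error over the 4 pair differences. A gene was called where its Benjamini-Hochberg adjusted p was under 0.05. In this contrast that mark only sorts genes by the size of the difference against the spread between pairs and is no evidence that the numbers differ, and a gene described as higher or lower was called in replicate 2 against replicate 1. The genes given were taken by a rule on size and by gene list, and those outside that rule, chosen after their values were seen, are Arntl, Clock, Cry1, Ciart, Npm1, Aen, Srebf1, Srebf2, Pgk1, Gapdh, Per1, Nr1d1, Bop1, Tsr1, Tef, Dusp1, Phlda1, Ifit2, Irf1, Jag1, Notch1, Rbpj, Nrarp, Grem1, Axin2, Tnc, Jph2, Chrnd, Hoxb4, Hoxa13, Atf4, Ryr1 and Klhl41. Differences within a single pair are on the log2 scale of CPM with a prior count of 2. Total counts of the 8 libraries lay between 20948439 and 22278138. Every pairing of these libraries differed by more than counting error, with a chi-square statistic of 19.2 to 180.1 for each degree of freedom. The labelled cell type was present: all 6 myoblast markers were in the table, with summed levels between 366.5 and 1053 CPM in replicates 1 and between 487.1 and 1186 CPM in replicates 2. Srf, the introduced gene, separated the lines rather than the numbers in these 8 libraries. It stood at 66.6, 1673, 279 and 154 CPM in replicate 1 of the pMSCV line, the SRF line, SRF-ICA1L and SRF-RELA, in the order used throughout, and at 93.8, 678, 176 and 137 CPM in replicate 2. In replicates 3 it stood at 83.4, 1033, 121 and 85.0 CPM, with SRF-RELA near pMSCV. Its replicate difference of -0.42 ± 0.26 was not called, although its levels in the SRF line lay far apart.

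Of 15062 genes tested, 3860 were called (25.6%), of which 2147 were higher (14.3%) and 1713 lower (11.4%). Nothing is read from these shares or from the list counts below, since this contrast chose the libraries. Of the called genes, 1412 differed at least 2-fold, 1091 of them higher and 321 lower, and 262 higher and 46 lower genes differed at least 2-fold in every pair. The median over all genes was -0.002. The 4 pairs differed in size: the standard deviation of the log2 differences over genes was 0.964 in pMSCV, 0.545 in SRF, 0.816 in SRF-ICA1L and 0.847 in SRF-RELA. The SRF pair thus had the smallest differences, and many genes below moved little in it. The count rested on which pairs were in the fit. It was 295 without the SRF-RELA pair, 928 without the SRF-ICA1L pair, 2410 without the pMSCV pair and 4729 without the SRF pair. No gene called in any of these fits and in the full fit changed direction.

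Scara5, which encodes a ferritin receptor, had the largest rise of the genes taken by the naming rule for size. It stood at 2.31, 1.64, 1.11 and 0.979 CPM in replicates 1 and at 78.6, 19.6, 19.2 and 12.3 CPM in replicates 2. Every replicate 2 library lay above every replicate 1 library, and the difference was 4.16 ± 0.28. Sulf2, a sulfatase that trims heparan sulfate chains at the cell surface, went from 2.95, 1.73, 4.19 and 10.2 CPM to 43.8, 15.9, 63.0 and 96.5 CPM. The groups did not overlap, and its difference of 3.56 ± 0.18 varied little between pairs (3.13 to 3.88). Selenop, the selenium transport protein, rose from 7.79, 4.72, 6.31 and 4.70 CPM to 80.7, 23.4, 36.2 and 38.6 CPM, a difference of 2.82 ± 0.20. The rise was found in the pMSCV line as well as in the lines carrying SRF or a fusion.

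Ogn, which encodes the small leucine-rich proteoglycan osteoglycin, was at 54.1, 60.0, 59.6 and 91.9 CPM in replicates 1 and at 1098, 111, 604 and 1215 CPM in replicates 2. The SRF library was the lowest of the 4, yet above every replicate 1 library, and the difference was 3.15 ± 0.57. Its relative Omd (osteomodulin) differed by 3.20 ± 0.53. The other genes that the naming rule gave on this side were Fndc1, Fmo1, Fbln7, Islr, Aff3, Nr4a3 and Ccl9, with differences between 2.83 and 3.49. Ccl9, a chemokine, rose in all 4 lines, from 2.35, 3.86, 4.14 and 4.70 CPM to 39.5, 20.2, 25 and 24.6 CPM.

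Among the largest falls, Ngfr, the low-affinity neurotrophin receptor, stood at 77.2, 16.6, 36.1 and 23.7 CPM in replicates 1 and at 5.64, 13.0, 3.57 and 2.42 CPM in replicates 2. The groups did not overlap, but the SRF pair barely differed (-0.36 against -3.25 to -3.75 in the other pairs). Sox2, a transcription factor of stem and neural cells, went from 7.93, 5.09, 4.14 and 2.79 CPM to 0.838, 1.78, 0.268 and 0.274 CPM, a difference of -2.85 ± 0.40. Nefm, a neurofilament subunit, differed by -2.53 ± 0.45 and Fgf5, a fibroblast growth factor, by -2.31 ± 0.29. Myo7b, Glrp1, F2rl1, Slco4a1, Igsf9b, Slc14a1, Dok7 and Ccbe1 completed the list, with differences between -2.88 and -1.94. For Nefm, Glrp1, F2rl1, Igsf9b, Slc14a1 and Dok7 the libraries of the 2 numbers overlapped, as levels differed widely between lines, and the fall appeared within each line.

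**Figure D1:**
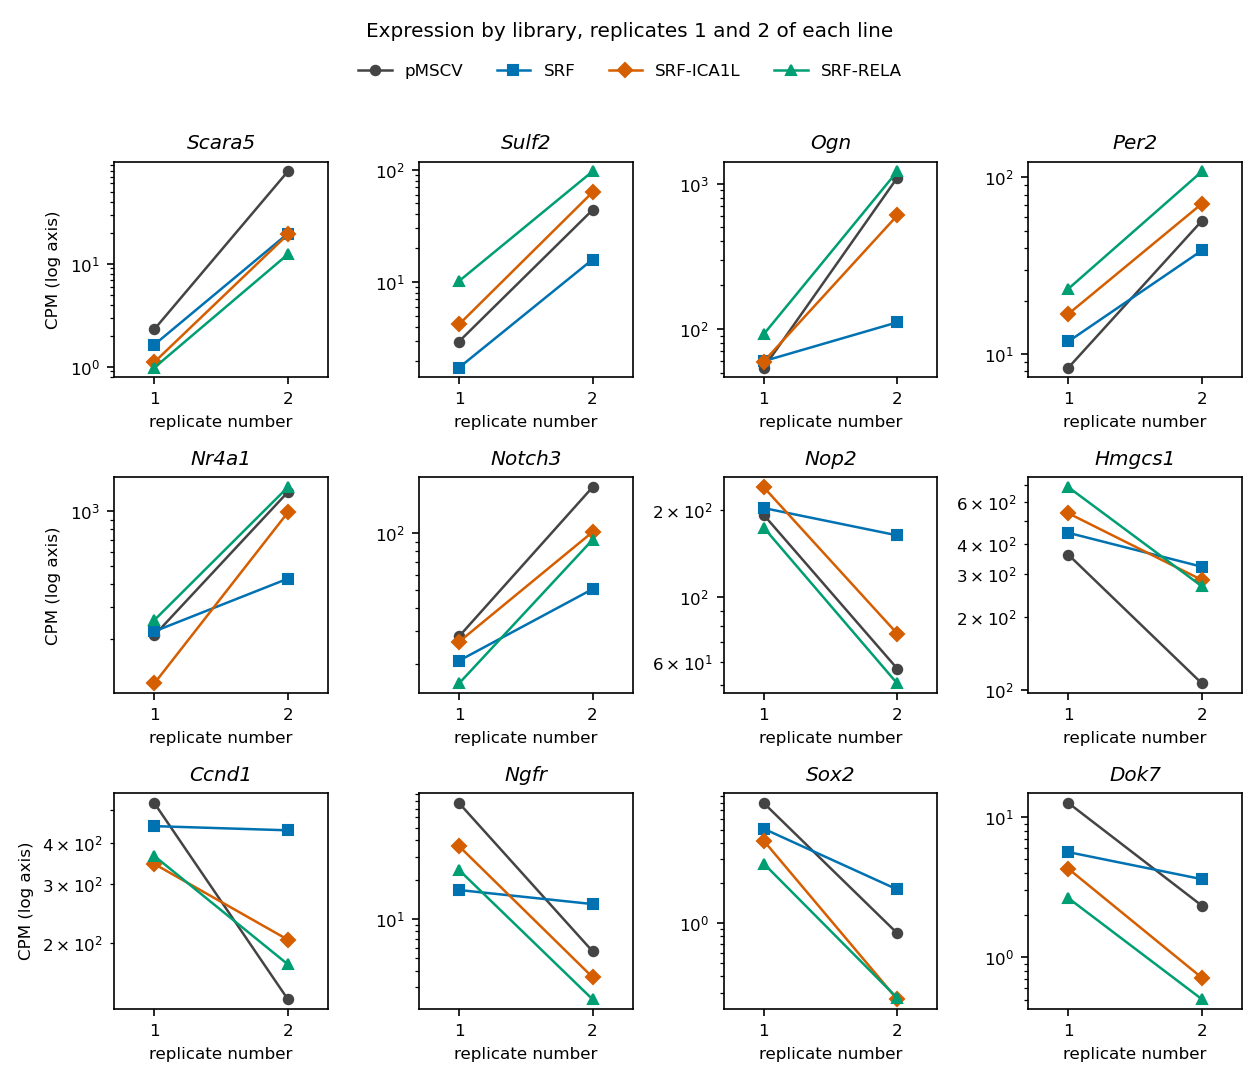
CPM on a log axis in replicate 1 and replicate 2 of the 4 lines for 12 named genes, 1 point per library and 1 line per pair. The rises of Scara5 and Sulf2 are steep in all 4 lines, while for Ogn, Nop2, Ccnd1 and Ngfr the SRF line is much flatter than the other 3.

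Of the 36 gene lists, the one with the lowest median was ribosome biogenesis, the making of ribosomal RNA and its assembly with proteins in the nucleolus. All 26 of 26 genes on this list were lower and none was higher, against 11.4% of all genes lower, and the median difference was -0.93 with single genes between -1.39 and -0.54. Nop2, which methylates ribosomal RNA, stood at 192, 203, 239 and 174 CPM in replicates 1 and at 56.9, 163, 75.0 and 50.6 CPM in replicates 2. All replicate 2 libraries were below all replicate 1 libraries, and its difference was -1.39 ± 0.25. Dkc1, the pseudouridine synthase of box H/ACA particles, went from 168, 184, 187 and 167 CPM to 43.7, 139.9, 68.6 and 56.3 CPM, a difference of -1.34 ± 0.23. Rrp12 and Rrp9, processing factors of ribosomal RNA, differed by -1.28 ± 0.26 and -1.16 ± 0.20. Npm1, an abundant nucleolar chaperone, differed by -0.81 ± 0.18. The median of the 26 genes was -1.08 in the pMSCV pair, -1.17 in SRF-ICA1L, -1.18 in SRF-RELA and -0.21 in SRF. Fewer genes were called among the structural proteins of the ribosome. Of 47 cytosolic ribosomal protein genes 5 were lower and none higher, a share of 10.6% against 11.4% of all genes, with a median of -0.29, and the pMSCV pair had a positive median of 0.19.

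Genes of DNA replication and mitosis were also lower in part. Of 32 replication genes 20 were lower and none higher (62.5%, median -0.67), and of 28 mitotic genes 13 were lower and none higher (46.4%, median -0.64), against 11.4% of all genes lower. Mcm3, a subunit of the replicative helicase, was at 224, 283, 272 and 300.4 CPM in replicates 1 and at 84.8, 267, 154 and 106 CPM in replicates 2, a difference of -0.95 ± 0.23. The SRF library numbered 2 lay among the replicates 1. Ccne2, a cyclin of the entry into S phase, differed by -1.34 ± 0.38 and Ccna2, cyclin A2, by -0.94 ± 0.23. The medians by pair were -1.19, -0.02, -0.48 and -1.07 for replication and -1.24, 0.06, -0.48 and -0.82 for mitosis, so both lists lay near 0 in the SRF pair. Mki67, the widely used proliferation marker, was at 622, 665, 666 and 739 CPM against 232, 703, 551 and 444 CPM and was not called (-0.58 ± 0.23). In bulk RNA, fewer cycling cells and less RNA per cell cannot be told apart.

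Regulators of the cell cycle showed opposite signs. Ccnd1, cyclin D1, which couples growth factor signals to entry into the cycle, went from 526, 448, 345 and 365 CPM to 135, 435, 204 and 172 CPM, a difference of -0.96 ± 0.27. The values of the SRF pair lay close together. Cdkn1a, which encodes the inhibitor p21, went from 283, 209, 216 and 202 CPM to 357, 322, 390 and 374 CPM, with no overlap between the groups and a difference of 0.68 ± 0.14. Myc, a transcription factor that drives ribosome biogenesis in growing cells, was higher rather than lower (0.64 ± 0.13), at 95.9, 107, 98.9 and 122 CPM against 177, 138, 149 and 198 CPM. Of 11 genes on this list 3 were higher and 1 lower (27.3% and 9.09%, against 14.3% and 11.4% of all genes). Of 20 targets of p53, 6 were higher, among them Btg2 (1.57 ± 0.28) and Trp53inp1 (1.32 ± 0.21), and 2 lower, Perp and Aen, with a median of 0.10. The p53 shares were 30.0% higher and 10.0% lower, against 14.3% and 11.4% of all genes.

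Biosynthesis of sterols and amino acids fell in part. Of 32 genes of cholesterol and fatty acid synthesis 14 were lower and none higher (43.8% against 11.4% of all genes, median -0.70). Hmgcs1, which makes the precursor of mevalonate, stood at 362, 445, 536 and 688 CPM in replicates 1 and at 106, 322, 284 and 268 CPM in replicates 2, without overlap, and differed by -1.13 ± 0.21. Fdps, a later enzyme of the sterol pathway, differed by -1.31 ± 0.33. The genes of the controlling factors Srebf1 and Srebf2 were not called, at 0.09 and 0.08. Of 36 genes of the ATF4 and amino acid response 15 were lower and 3 higher (41.7% and 8.33%, against 11.4% and 14.3% of all genes, median -0.39). Psat1, an enzyme of serine synthesis, went from 711, 657, 537 and 521 CPM to 308, 422, 292 and 234 CPM, again without overlap, and differed by -0.97 ± 0.14. Atf4 itself differed by -0.06 and was not called.

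Of 35 glycolysis and hypoxia genes 10 were lower and 4 higher (28.6% and 11.4%, against 11.4% and 14.3% of all genes, median -0.18). The lower members included the glycolytic enzymes Pgk1 (-0.72 ± 0.17) and Gapdh (-0.70 ± 0.15), the latter often used as a reference gene, at 3002, 2816, 2796 and 2652 CPM against 1792, 2175, 1648 and 1381 CPM. The lactate exporter Slc16a3 differed by -1.68 ± 0.33, while Car9, carbonic anhydrase 9, was higher by 2.03 ± 0.35. Of 17 heat shock genes 6 were lower (35.3%) and 3 higher (17.6%), against 11.4% and 14.3% of all genes. The lower ones were led by the mitochondrial chaperonin pair Hspd1 (-0.97 ± 0.19) and Hspe1 (-0.81 ± 0.16). Of 35 nuclear genes of oxidative phosphorylation 2 were lower, Cycs and Cox5a, and none was higher (5.71% lower against 11.4% of all genes, median -0.18). Most of these energy genes thus were not called.

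Of the 36 lists, the circadian clock had the largest share of higher genes, with 13 of 19 higher and 1 lower, against 14.3% and 11.4% of all genes, and a median of 1.0. Per2, a repressor in the clock loop, stood at 8.39, 11.8, 16.9 and 23.4 CPM in replicates 1 and at 56.9, 38.6, 71.0 and 108 CPM in replicates 2. The groups did not overlap, and the difference was 2.18 ± 0.18. Per1 went from 29.0, 34.8, 38.0 and 45.9 CPM to 140.3, 83.8, 116 and 151 CPM, a difference of 1.72 ± 0.17. Dbp, an output gene of the clock, differed by 1.73 ± 0.29, and Nr1d1, a repressor of Arntl, by 0.86 ± 0.14. Npas2, a relative of Clock, rose from very low levels by 2.97 ± 0.33. Arntl, the activator of the loop, was the single lower member, at 51.6, 46.6, 58.4 and 38.9 CPM against 28.6, 30.3, 32.7 and 31.8 CPM (-0.65 ± 0.14), and its partner Clock was not called (-0.42). The 13 higher members thus had the opposite sign to Arntl, while Cry1 (-0.34) and Ciart (-0.51), which were not called, had the same sign. The medians by pair were 1.01, 0.57, 0.66 and 1.11, with the SRF pair at more than 0.5 as well.

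**Figure D2:**
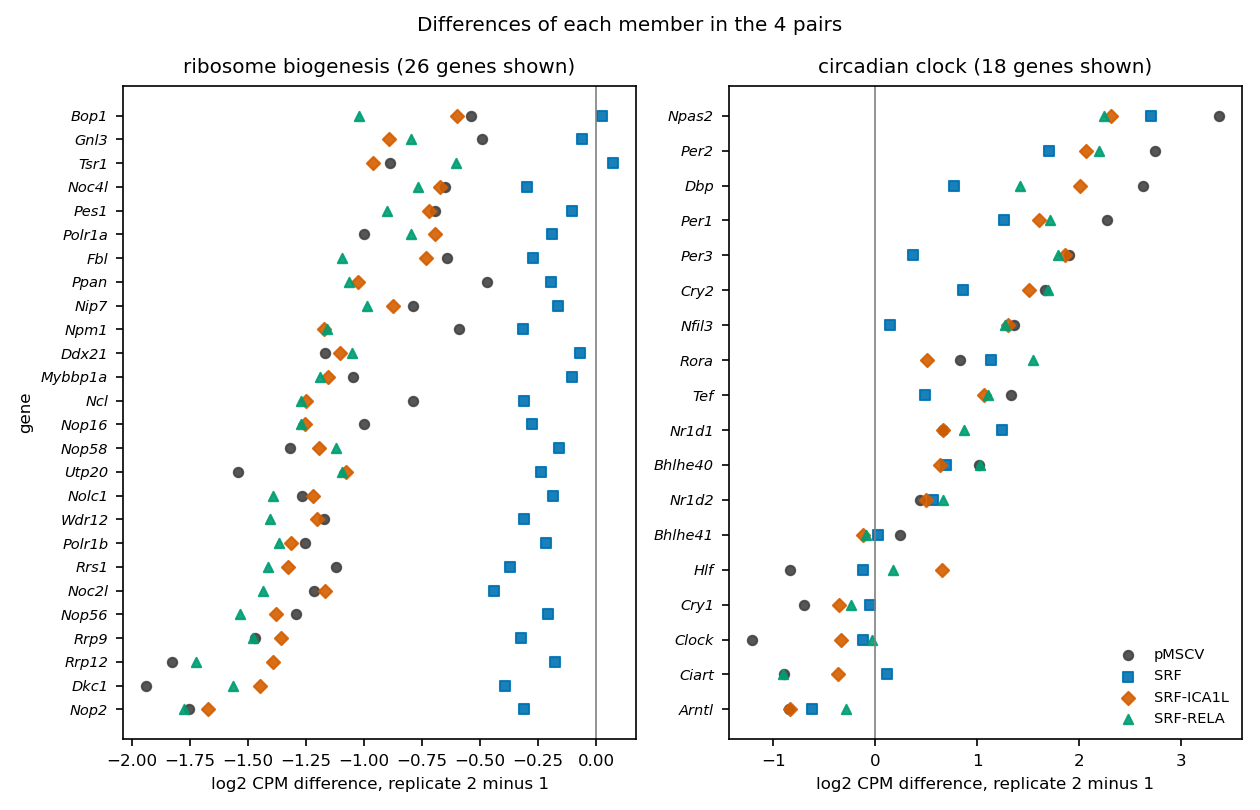
Log2 CPM difference, replicate 2 minus replicate 1, of the 26 genes of the ribosome biogenesis list (left) and of 18 of the 19 genes of the circadian clock list (right), 1 point per pair of libraries, genes ordered by their fitted difference. The SRF points of the left panel lie between the other pairs and 0, with Bop1 and Tsr1 just above 0, while on the right the 12 higher genes shown lie above 0 in all 4 pairs.

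Upstream sequences of a few members are given to show the motifs that clock and SRF biology attach to such genes. They are the 250 bases before an annotated start in RefSeq (GRCm38.p6), all on the plus strand, with the motif in capitals. The E-box searched is CACGTG, which reads the same on both strands and is bound by the Arntl-Clock dimer and by Myc. The CArG box was searched on both strands as well. Over all 32851 annotated starts, windows of 300 bases held the E-box in 7.15% and the CArG box in 1.63%. Those windows, also used for the counts by list below, run from 250 bases before the start to 50 bases after it. The windows of Per1, with the E-box at -166, Tef, a clock output gene with one at -127, and Nop2, with one at -60, and 1 of the windows of Egr2, with a CArG box at -72, are as follows.
Per1, chr11:69098699-69098948: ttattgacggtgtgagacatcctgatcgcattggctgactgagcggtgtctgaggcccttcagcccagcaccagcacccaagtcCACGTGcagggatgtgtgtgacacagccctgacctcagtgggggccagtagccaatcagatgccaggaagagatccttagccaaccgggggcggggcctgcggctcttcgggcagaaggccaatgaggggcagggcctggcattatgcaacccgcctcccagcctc
Tef, chr15:81802423-81802672: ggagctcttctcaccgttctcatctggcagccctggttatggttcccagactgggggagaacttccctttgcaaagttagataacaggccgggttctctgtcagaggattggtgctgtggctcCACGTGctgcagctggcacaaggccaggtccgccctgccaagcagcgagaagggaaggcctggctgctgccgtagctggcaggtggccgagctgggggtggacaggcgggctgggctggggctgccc
Nop2, chr6:125131633-125131882: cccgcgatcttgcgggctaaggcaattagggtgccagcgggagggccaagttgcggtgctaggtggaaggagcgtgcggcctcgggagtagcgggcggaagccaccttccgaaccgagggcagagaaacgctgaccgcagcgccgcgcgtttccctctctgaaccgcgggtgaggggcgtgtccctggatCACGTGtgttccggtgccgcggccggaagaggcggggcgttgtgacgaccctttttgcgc
Egr2, chr10:67537619-67537868: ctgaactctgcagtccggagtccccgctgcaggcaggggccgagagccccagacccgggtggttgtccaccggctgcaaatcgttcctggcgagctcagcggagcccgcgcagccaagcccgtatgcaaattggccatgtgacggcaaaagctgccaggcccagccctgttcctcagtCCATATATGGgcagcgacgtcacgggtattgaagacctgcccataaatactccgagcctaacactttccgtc
Of the clock list, 16 of 19 genes had an annotated window and 5 of these held the E-box, of which Per1 and Tef were higher and Ciart, Cry1 and Bhlhe41 not called. Counted in the same way, per gene with any window, 1220 of 10631 genes in the table (11.5%) held the E-box. Of the ribosome biogenesis list, 21 of 26 had a window and 5 held the E-box (Mybbp1a, Nop2, Pes1, Tsr1 and Utp20). Of these, only Nop2 held it wholly within the 250 bases before the start, while all 5 of the clock list did. The same letters thus stood upstream of Per1 and Tef, which rose, and of Nop2, which fell. A match is a description of the sequence and shows neither a bound site nor a cause. Motif shares of called and other genes are not compared here, since only 10631 of 15040 named genes had a window.

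Immediate-early genes, which respond to growth factors and stress without new protein synthesis, were higher in part. Of 25 genes 14 were higher and 1 lower (56.0% higher against 14.3% of all genes, median 0.72). The nuclear receptors of the NR4A family led. Nr4a1 stood at 209.5, 220.1, 114 and 254 CPM in replicates 1 and at 1275, 428, 986 and 1356 CPM in replicates 2, without overlap, a difference of 2.29 ± 0.33. Nr4a3 differed by 2.88 ± 0.41, Egr3 by 2.13 ± 0.26 and Egr2, whose upstream CArG box is shown above, by 2.06 ± 0.30. Egr1 was at 519.9, 981, 1195 and 1894 CPM against 1818, 1576, 2717 and 3150 CPM (1.10 ± 0.20), with overlap between the numbers and a rise in each line. Fos, the classic member of the class, was not called: 159, 388, 305 and 600 CPM against 562, 221, 223 and 568 CPM (0.08 ± 0.42), higher in the pMSCV pair and lower in value in the SRF and SRF-ICA1L pairs. Dusp1, a phosphatase that restrains the response, was the single lower member (-0.42 ± 0.13).

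Feedback genes of ERK signalling gave no common direction: 3 of 12 were higher, the inhibitors Spry4 (1.02 ± 0.20) and Spry2 (0.95 ± 0.13) and Phlda1, and 2 were lower, Etv4 (-1.05 ± 0.23) and Epha2. The shares of higher and of lower genes on this list were both above those of all genes (14.3% and 11.4%). Of 24 NF-kappaB targets and cytokines 10 were higher and none lower (41.7% higher against 14.3% of all genes, median 0.38). Nfkbia, the inhibitor that NF-kappaB itself induces, went from 58.7, 55.8, 50.8 and 101 CPM to 164, 154, 278 and 318 CPM, without overlap, a difference of 1.76 ± 0.18. The cytokine Il6 differed by 1.94 ± 0.32 and the chemokine Cxcl1 by 1.55 ± 0.25. The rise of Nfkbia was found in each line, by 1.48, 1.46, 2.45 and 1.65.

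Interferon-response and antigen-presentation genes were higher in part, most of them from low levels. Of 34 interferon genes 14 were higher and 1, Ifit2, lower (median 0.79), and of 13 genes of MHC class I presentation 7 were higher and none lower (median 0.69). The shares of higher genes were 41.2% and 53.8%, against 14.3% of all genes. Irf1, an interferon-induced transcription factor, went from 16.7, 18.8, 16.2 and 21.7 CPM to 41.6, 25.2, 64.8 and 65.9 CPM (1.34 ± 0.23). Tap1, which carries peptides to MHC class I, went from 1.61, 1.64, 1.01 and 2.64 CPM to 6.13, 3.66, 7.55 and 10.0 CPM (1.96 ± 0.29), without overlap. Igtp, an immunity-related GTPase, differed by 2.76 ± 0.35. Psmb8, a subunit of the immunoproteasome, had at most 3 counts in each replicate 1 library, and against a floor of 3 counts per library it was at least 6.24-fold higher. Tgtp2, by the same floor, was at least 5.50-fold higher, a bound that rests on the pMSCV library at 2.47 CPM, since the other replicate 2 libraries were at 0.319 CPM or less. Tgtp1 and Tgtp2 are near-identical genes whose reads may be shared. With the 4 such members of the interferon list set to their bounds, its median was 0.78.

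Notch signalling, in which receptors on 1 cell are activated by ligands on its neighbour, had 7 of 13 genes higher and 1 lower (median 0.51). These shares were 53.8% and 7.69%, against 14.3% and 11.4% of all genes. Among the ligands Jag1 was higher (0.72 ± 0.18) and Jag2 lower (-0.85 ± 0.19). The receptor Notch3 stood at 28.1, 20.9, 26.3 and 15.8 CPM in replicates 1 and at 175, 50.2, 101 and 91.9 CPM in replicates 2, without overlap, a difference of 2.10 ± 0.23. Notch1 differed by 0.85 ± 0.15. Among the targets, Hey1 went from 24.6, 7.86, 4.19 and 3.87 CPM to 108, 26.2, 36.6 and 25.2 CPM (2.40 ± 0.23) and was higher within each line. Heyl, another target, had at most 2 counts in each replicate 1 library and lay at 6.79, 1.05, 3.30 and 2.46 CPM in replicates 2. Against the floor of 3 counts per library it was at least 25.2-fold higher. Rbpj, the DNA-binding partner of the pathway, and the target Nrarp were not called (-0.08 and -0.05).

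Secreted growth factor pathways were higher in members rather than as a whole. Of 23 TGF-beta and BMP genes 10 were higher, among them the ligand subunit Inhbb (2.06 ± 0.52), the ligand Tgfb3 (1.15 ± 0.20) and the target Id3 (1.35 ± 0.21), and 1, the inhibitor Grem1, was lower. These shares were 43.5% and 4.35%, against 14.3% and 11.4% of all genes. Of 18 Wnt genes 6 were higher (33.3%, against 14.3% of all genes) and none lower. They were led by the secreted inhibitor Sfrp1 (3.56 ± 0.36, from under 0.3 CPM in each replicate 1 library) and the receptor Fzd4 (1.73 ± 0.38). The target Axin2 was not called (-0.65). Of 12 genes of the IGF axis 6 were higher and none lower, a share of higher genes above the 14.3% of all genes. The binding protein Igfbp5 was at 1267, 325, 199 and 216 CPM against 2864, 612, 701 and 572 CPM (1.33 ± 0.17). H19, the noncoding RNA next to Igf2, differed by 1.84 ± 0.33 and Igf1 by 2.50 ± 0.64. Of 20 FOXO and atrophy targets 8 were higher and none lower (40.0% higher against 14.3% of all genes, median 0.42). The higher ones included Klf9 (1.40 ± 0.16), the metabolic kinase Pdk4 (1.05 ± 0.20), Sesn3 and the insulin receptor substrate Irs2.

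Matrix genes differed unevenly between the lines. Of 34 collagen and matrix genes 8 were higher and 1, Tnc, lower (median 0.52), and the medians by pair were 1.46, 0.08, -0.04 and 0.71. These shares were 23.5% and 2.94%, against 14.3% and 11.4% of all genes. Col6a1, a chain of collagen VI, stood at 179.6, 216, 218 and 238 CPM in replicates 1 and at 1040, 256, 623 and 949.7 CPM in replicates 2 (1.59 ± 0.34), without overlap. Col3a1 went from 729, 934, 1105 and 1132 CPM to 4180, 1288, 2041 and 2760 CPM (1.28 ± 0.30). Col1a1 was not called, at 7.29, 27.2, 47.8 and 38.4 CPM against 55.1, 42.1, 58.6 and 97.7 CPM (1.25 ± 0.40). Of 19 matrix proteases and inhibitors 9 were higher (47.4%, against 14.3% of all genes) and none lower. The higher ones included Mmp13 (2.0 ± 0.36), the inhibitor Serpine2 (1.99 ± 0.30) and Mmp2 (1.22 ± 0.33). Mmp13 was at low levels, with means of 0.37 CPM in replicates 1 and 1.46 CPM in replicates 2.

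**Figure D3:**
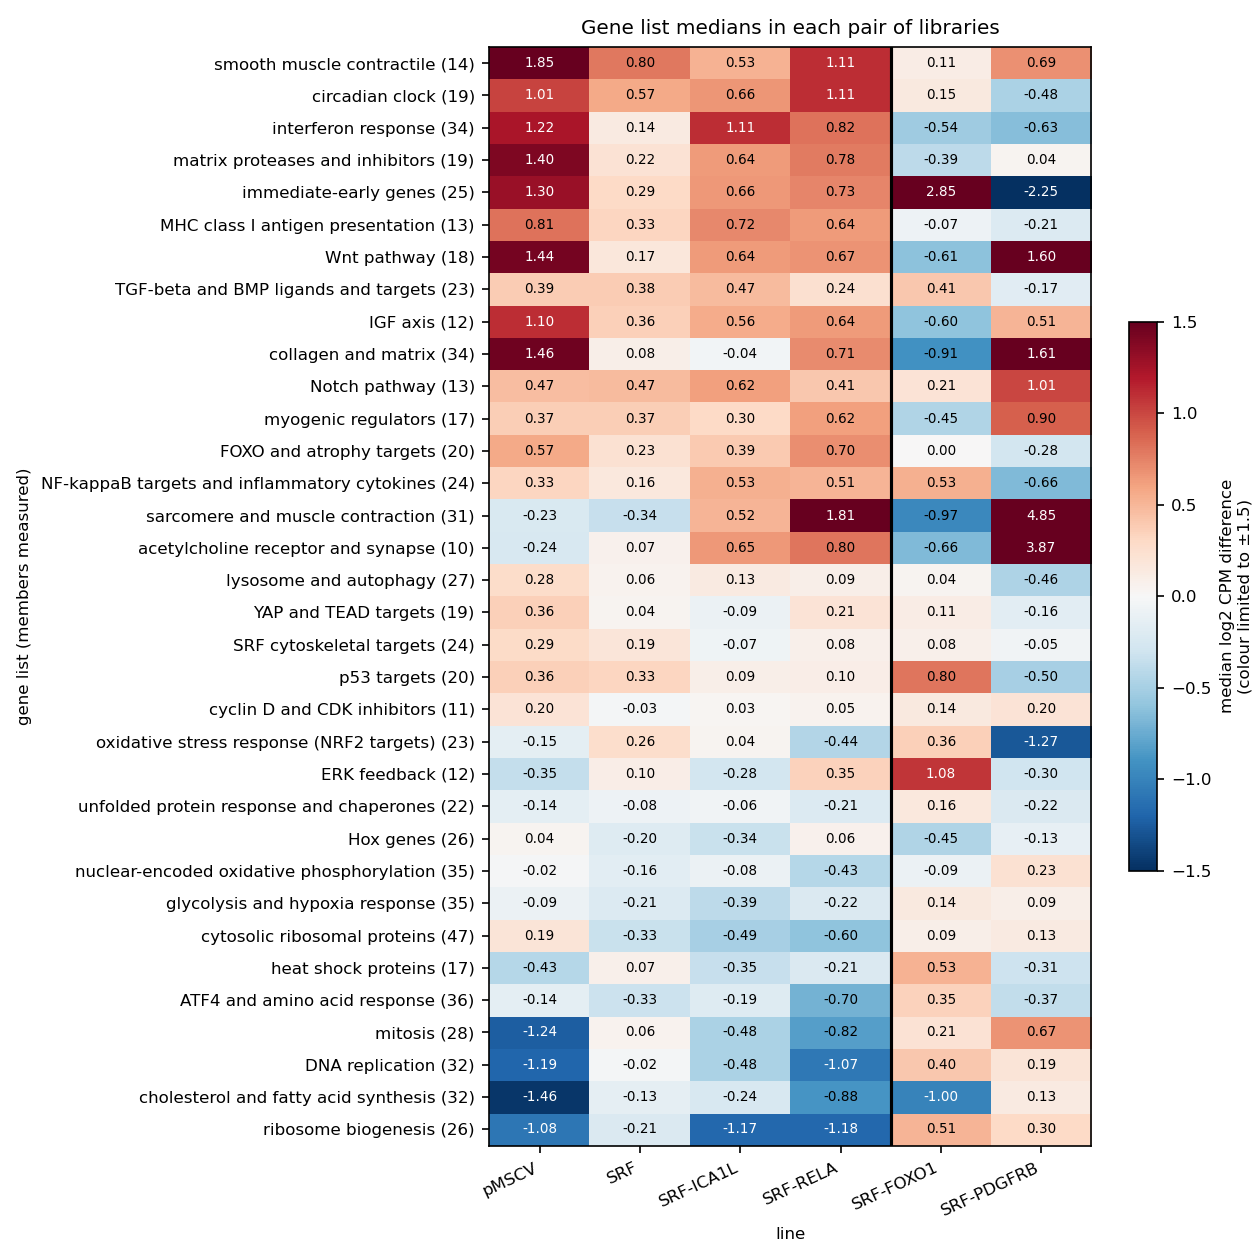
Median log2 CPM difference, replicate 2 minus replicate 1, of each gene list with at least 10 measured members in each of the 6 lines, with the value printed in each cell and colour limited to ±1.5. Left of the vertical line, 3 of the 4 pairs share low values for ribosome biogenesis (-1.08, -1.17 and -1.18) and the SRF pair lies nearer to 0 (-0.21), and right of it SRF-FOXO1 and SRF-PDGFRB differ in sign for immediate-early genes (2.85 and -2.25).

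Skeletal muscle genes did not move as a block. Among 17 regulators of myogenesis 7 were higher and none lower (41.2% higher against 14.3% of all genes, median 0.47). Pax7, the factor that marks satellite cells, went from 0.138, 0.136, 0.578 and 0.245 CPM to 7.41, 2.10, 4.29 and 2.15 CPM (3.79 ± 0.46). The inhibitors of differentiation Id3 and Id1 (0.96 ± 0.14) were higher too. Id3 stood at 88.7, 95.0, 81.1 and 139 CPM against 359, 161, 265 and 264 CPM, without overlap. The determination and differentiation factors were not called: Myod1 at -0.17 ± 0.14, Myf5 at 0.50 ± 0.18 and Myog at 0.36 ± 0.30. Myod1 ranged from 13.2 to 61.1 CPM in replicates 1 and from 14.3 to 44.9 CPM in replicates 2, with the pMSCV line highest in each.

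Of 31 sarcomere and contraction genes 3 were higher, Actn3 (1.25 ± 0.25), Des (0.69 ± 0.16) and Jph2, and 2 lower, Tnnt2 (-1.12 ± 0.24) and Xirp1 (-0.92 ± 0.22). These shares, 9.68% and 6.45%, lay below those of all genes (14.3% and 11.4%). The medians by pair were -0.23 in pMSCV, -0.34 in SRF, 0.52 in SRF-ICA1L and 1.81 in SRF-RELA. Of 10 genes of the acetylcholine receptor and the synapse 2 were higher, the fetal receptor subunit Chrng (1.69 ± 0.34) and the agrin receptor Lrp4 (1.34 ± 0.14), and 3 lower, the receptor subunits Chrnb1 (-1.05 ± 0.18) and Chrnd (-0.72 ± 0.14) and the scaffold Dok7 (-1.95 ± 0.36). Receptor subunits of the same channel thus differed in sign. On this list the shares of higher and of lower genes were both above those of all genes (14.3% and 11.4%).

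Of 24 cytoskeletal targets of SRF itself 5 were higher and none lower, with a median of 0.11. The share of higher genes was 20.8%, against 14.3% of all genes. Myl9, a myosin regulatory light chain, went from 4.57, 3.77, 38.1 and 47.2 CPM to 52.2, 31.2, 66.8 and 109 CPM (2.06 ± 0.48). In replicates 1 the control lines lay far below the fusion lines, and in replicates 2 nearer to them. Of 14 smooth muscle contractile genes 7 were higher and none lower (median 1.17), a share of higher genes above the 14.3% of all genes. Among them were Kcnmb1 (1.92 ± 0.49) and Mylk, the myosin light chain kinase (1.65 ± 0.43). Acta2 was not called, at 222, 973, 2179 and 2194 CPM against 1592, 2187, 2538 and 3194 CPM (1.16 ± 0.41), nor was Tagln (0.20 ± 0.35). Of 19 YAP and TEAD targets 3 were higher and 2 lower, or 15.8% and 10.5%, near the shares of all genes, and Ccn2 was at 0.01 ± 0.61.

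The remaining lists moved little or in parts. Of 26 Hox genes 7 were lower (26.9%) and 2 higher (7.69%), against 11.4% and 14.3% of all genes. Of the lower ones 5, Hoxb3, Hoxb4, Hoxb6, Hoxb7 and Hoxb9, belong to 1 cluster. Hoxb9 was at 52.6, 33.9, 11.3 and 8.42 CPM against 19.7, 11.6, 1.70 and 3.38 CPM (-1.71 ± 0.23). Hoxa13 was higher (1.45 ± 0.27). Of 27 lysosome and autophagy genes 3 were lower, including Gpnmb (-1.60 ± 0.20), of 22 genes of the unfolded protein response 2 were higher and 1 lower, and of 23 NRF2 targets 3 were higher, led by Gsta3 (1.62 ± 0.30), and 2 lower. These 3 lists had 0%, 9.09% and 13.0% of their genes higher and 11.1%, 4.55% and 8.70% lower, at or below the shares of all genes (14.3% and 11.4%). Of 4 measured histone genes 1, H1f2, was higher (1.21 ± 0.23). Both measured mitochondrial RNAs, mt-Rnr1 and mt-Rnr2, were not called.

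The list counts depended on which pairs were in the fit, as the count over all genes did. Without the SRF-RELA pair 0 of 26 ribosome biogenesis genes, 0 of 32 replication genes, 0 of 28 mitotic genes and 0 of 32 sterol genes were called lower. In that fit 5 clock genes, 6 immediate-early genes, 3 Notch genes, 1 NF-kappaB target, 1 interferon gene and none of the MHC class I genes were called higher. The medians moved less: -0.82 for ribosome biogenesis, -0.52 for replication, -0.57 for sterols, 0.86 for the clock, 0.81 for immediate-early genes and 0.61 for Notch. Without the SRF-ICA1L pair 7 ribosome biogenesis, 1 replication, 1 mitotic and 4 sterol genes were lower. Higher in that fit were 11 clock, 10 immediate-early, 4 Notch, 6 NF-kappaB, 3 interferon and 3 MHC class I genes. Without the pMSCV pair 2 replication, 2 mitotic and 4 sterol genes but 22 ribosomal protein genes were lower, and without the SRF pair 30 replication, 25 mitotic and 22 sterol genes were lower. Over all 15062 genes, 61 were lower and 234 higher without the SRF-RELA pair, and 236 lower and 692 higher without the SRF-ICA1L pair. With the pMSCV pair left out 899 were lower and 1511 higher, and with the SRF pair left out 2232 were lower and 2497 higher. These fits had fewer libraries, with 2 residual degrees of freedom in place of 3. The median of the sarcomere list was -0.03 without the SRF-RELA pair.

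Markers of other cell types were measured beside these lists. Fibroblast markers were summed at 21.7 to 23.2 CPM in replicates 1 and at 33.0 to 95.5 CPM in replicates 2, with 3 of the 5 measured markers higher (Pdgfra, Pi16 and Clec3b) and Thy1 not analysed here. Beside them, the collagen and matrix medians were 1.46, 0.08, -0.04 and 0.71 by pair. Pericyte and smooth muscle markers were summed at 86.0 to 111 CPM against 113 to 229.8 CPM, with Notch3 and Myh11 higher, Cspg4 not called and Rgs5 not analysed here. Myh11 was at 0.14, 0.09, 0.24 and 4.505 CPM against 0.22, 0.27, 0.31 and 14.15 CPM, so only SRF-RELA had more than a trace. Chondrocyte and osteoblast markers stood at 207 to 247 CPM against 270.3 to 406 CPM, with 3 of 4 measured markers higher. Schwann and neural markers stood at 23.8 to 88.0 CPM against 4.52 to 16.9 CPM, with Sox2 and Ngfr lower and S100b not called. Of the endothelial, macrophage and epithelial markers, the measured ones were summed at no more than 2.81, 32.1 and 32.5 CPM, with Lyz2 of macrophages higher (1.90 ± 0.35) and Cdh5 of endothelium lower (-2.36 ± 0.66), and Pecam1, Ptprc and Epcam were not analysed here. The epithelial keratin Krt14 was not called, at 1.80, 4.77, 4.62 and 6.76 CPM against 4.36, 32.3, 8.97 and 4.75 CPM. Adipocyte markers were summed at 18.3 to 31.9 CPM against 18.6 to 25.3 CPM and those of differentiated muscle at 32.7 to 166.5 CPM against 29.0 to 199.7 CPM, with none called. Whether other cells contributed to the matrix, Notch or neural differences was not tested.

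The replicate difference was set against the 2 lines that the choice left out. The 4 lines were kept because their same-numbered libraries deviated together. Weaker agreement with lines left out can follow from that choice and is no independent result. In SRF-FOXO1 and SRF-PDGFRB together, edgeR's quasi-likelihood test called 0 genes (0%), with 129 genes at an unadjusted p under 0.05 and 4 called by DESeq2. This fit had 4 libraries and 1 residual degree of freedom. Across genes, the pair differences of the 4 lines correlated with each other at 0.402 to 0.742, with SRF-FOXO1 at -0.15 to 0.17 and with SRF-PDGFRB at -0.10 to 0.06, as a description over 15062 genes, since genes of 1 library share its depth and composition. The pairs of SRF-FOXO1 and SRF-PDGFRB correlated with each other at -0.411, with standard deviations of 0.752 and 1.137, so 0 calls over the pooled pairs says little about either line. The ribosome biogenesis list, lower in the 4 lines, had medians of 0.51 in SRF-FOXO1 and 0.30 in SRF-PDGFRB. The clock list had medians of 0.15 and -0.48. Scara5 was at 5.01 and 5.53 CPM in SRF-FOXO1 replicates 1 and 2 and at 3.03 and 28.1 CPM in SRF-PDGFRB. The ribosome biogenesis medians thus had the opposite sign in these lines, and the difference between the sets of lines was not tested.

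**Figure D4:**
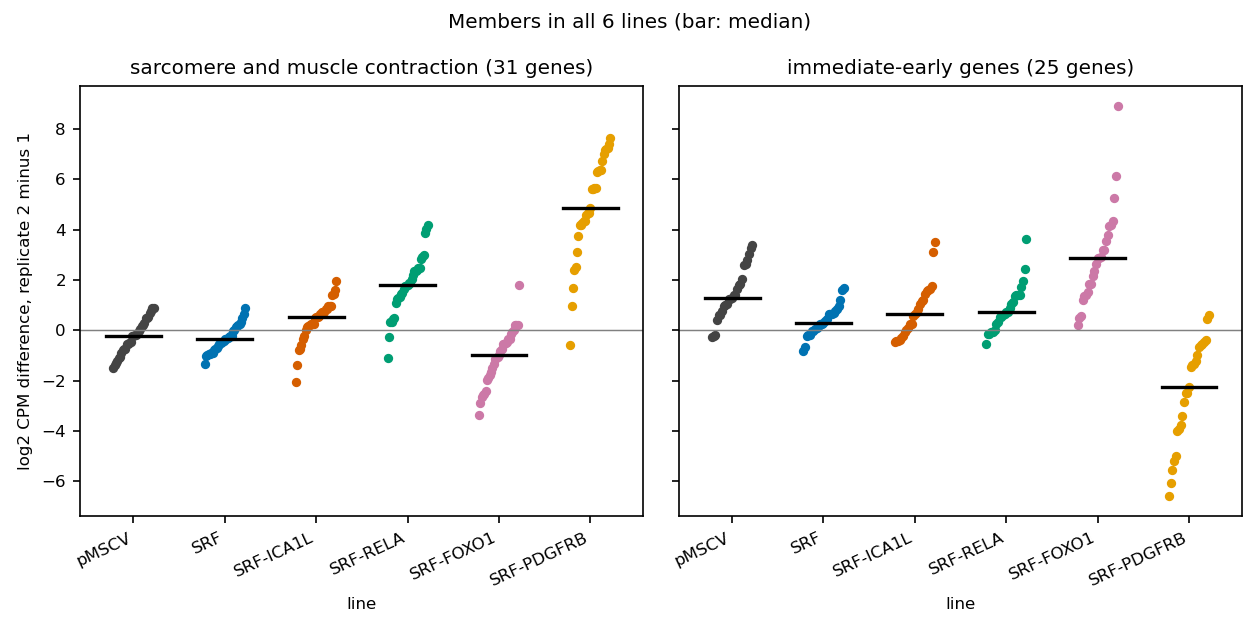
Log2 CPM difference, replicate 2 minus replicate 1, of the genes of the sarcomere list (left) and the immediate-early list (right) in all 6 lines, 1 point per gene with the median as a bar. The sarcomere medians run from -0.97 in SRF-FOXO1 to 4.85 in SRF-PDGFRB, and the immediate-early medians of SRF-FOXO1 and SRF-PDGFRB lie on opposite sides of 0 (2.85 and -2.25).

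Whether the fusion lines SRF-ICA1L and SRF-RELA had another replicate difference than the control lines pMSCV and SRF was tested with an interaction term in the same 8 libraries. edgeR's quasi-likelihood test called 0 genes (0%), with the smallest adjusted p at 0.958, 705 genes at an unadjusted p under 0.05 and 25 genes called by DESeq2. Of the 31 sarcomere genes 18 had an unadjusted p under 0.05, and in all of these except Tnnt2 the difference was larger in the fusion lines. Ryr1, the calcium release channel of muscle, was among them, with differences of -0.57 and -0.04 in pMSCV and SRF and of 1.61 and 2.81 in SRF-ICA1L and SRF-RELA (interaction 2.60, edgeR adjusted p = 0.958). Klhl41 had differences of -0.73 and -0.74 against 0.96 and 1.76 (edgeR adjusted p = 0.958). Neither passed the test after adjustment. No difference between fusion and control lines was therefore called, with 2 residual degrees of freedom.

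**Figure D5:**
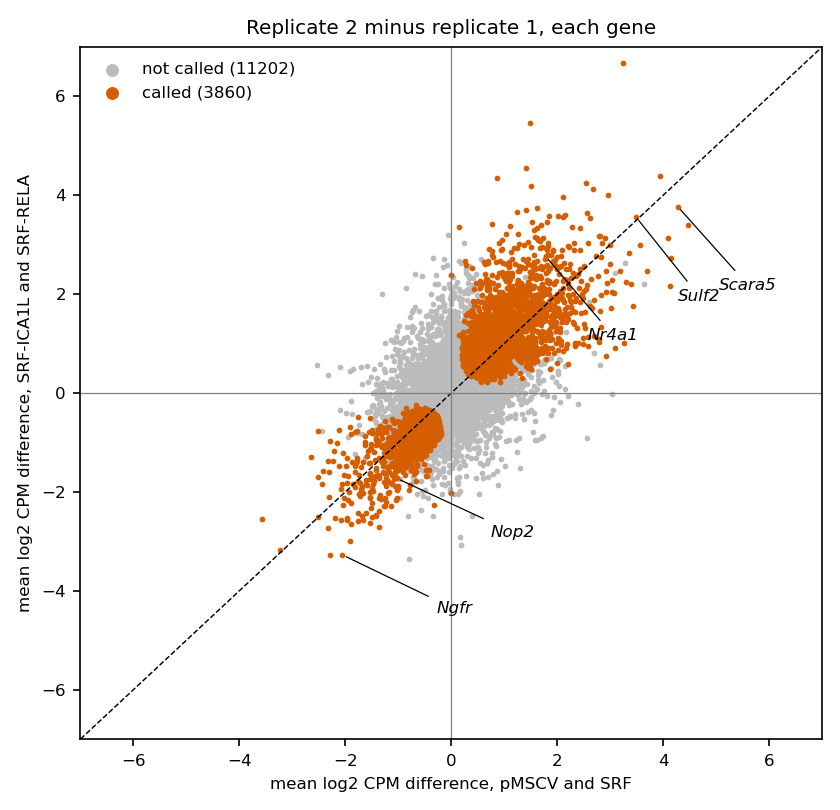
Mean log2 CPM difference, replicate 2 minus replicate 1, of pMSCV and SRF (horizontal) and of SRF-ICA1L and SRF-RELA (vertical), 1 point per gene, with the 3860 called genes coloured and the dashed line marking equal differences. Scara5 and Sulf2 lie near the dashed line, and Nop2 and Ngfr lie below it, with a small difference in the SRF pair.

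Of the 6 genes with the widest spread between pairs, Postn, periostin, differed by 5.55 in pMSCV and by -1.35 in SRF-ICA1L, and Aoc3, an amine oxidase of smooth muscle, by 6.74 in pMSCV and 0.52 in SRF. Prelp, a proteoglycan, differed by 6.05 in pMSCV and 0.51 in SRF. Itga11 and Serpinb2 also changed sign between pairs, and of the 6 genes only Slc6a2 was called (2.86 ± 0.77), with a SRF pair of -0.42. These 6 genes were picked for that spread, so they do not measure how uniform the replicate difference was.

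Called genes are described last by level and length. The median level was 18.9 CPM for higher genes, 45.3 CPM for lower genes and 21.6 CPM for all genes tested. The median transcript length was 3626 nt, 3073 nt and 3107 nt, and the median GC content 50.5%, 48.9% and 49.4%. The lower genes thus had the highest median level and the higher genes the longest median length, and the part of length or level in the calls was not tested.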

How the data were processed

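Poly(A)-selected RNA of C2C12 cells was sequenced in 17 libraries, per the labels' protocols. The authors deposited 1 table of whole-number counts per gene. The submitters' processing notes name FastQC 0.11.8, Trimmomatic 0.39, HISAT2, featureCounts of Subread 2.0.0 and GRCm38. The strand setting of the counting is not given in the sources used here, so reads of overlapping antisense genes may not be separated. The table holds genes whose third-highest count reaches 10. Symbols absent from the table were filled for 1519 of 1531 genes from RefSeq names.

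The raw counts of 8 libraries were fitted with edgeR 4.0.16 (quasi-likelihood, TMM scaling, no further filter) in R 4.3.3, with line as a block, and p-values were adjusted by Benjamini-Hochberg over 15062 genes. The same test was run on the 4 libraries of SRF-FOXO1 and SRF-PDGFRB, and with an interaction of replicate and fusion. The script was checked on simulated data. Alternatives were DESeq2 1.42.0, limma 3.58.1 (voom), other scalings and filters, no block, all 12 libraries of the 4 lines, and each pair left out. Tables and figures used Python 3.11.15.

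The replicate number is itself the contrast, and the 4 lines, the members and the gene lists were chosen with earlier results of these data known. Genes were named as follows: the 12 largest rises and 12 largest falls among called genes with 1 sign in all 4 pairs and 50 or more counts in each library on the higher side, up to 4 called members of each list, a fixed set of 13 genes, and the 6 genes with the widest spread between pairs. Single values of 4 genes are not reported here, although list counts and medians include them.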

Additional observations from a re-analysis of the deposited data

Results flagged for a closer look

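The 4 pair differences of each of 171 genes and 36 lists were checked for 1 pair far from the other 3, by the gap to the nearest pair over the whole range, against Dixon's critical value for 4 values. Chance flags about 1 in 20 groups of 4. Of the 15 found, 11 had the SRF pair apart, and most of these lay nearer to 0 than the other pairs. Omd differed by 0.95 in the SRF pair and by 3.64 to 4.18 in the others, and Aff3 by 0.90 against 3.33 to 3.65. Ngfr differed by -0.36 in the SRF pair, Dok7 by -0.63 and Wwc1 by -0.082, where the other pairs lay at -1.84 or below. Hspd1 (-0.24), Nop2 (-0.31) and Rrp9 (-0.32) were small in the SRF pair too, as was the ribosome biogenesis median (-0.21 against -1.18 to -1.08). The sign was opposite in the SRF pair for the chemokine gene Cxcl12, at -0.43 against 2.08 to 2.57, and for the transporter gene Slc6a2, at -0.42 against 3.67 to 3.83.

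The pMSCV pair stood apart for Ccl9 (4.02 against 2.36 to 2.57), Egr2 (3.39 against 1.56 to 1.74) and Pdk4 (1.83 against 0.77 to 0.85). The SRF-RELA pair stood apart for Lrp4 (1.72 against 1.15 to 1.24).

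For 2 lists both control pairs had medians on one side of 0 and both fusion pairs on the other. Fusion minus control lines, the mean of the pair medians differed by 1.45 for the sarcomere list and by -0.63 for the mitochondrially encoded list, which has 2 measured members. The difference of these list medians was not tested.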

How the results depend on the processing

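No paired analysis was possible because the replicate number, which would pair libraries across lines, is itself the contrast. Pairing within a line is already in the fit, as its block. Without that block 2186 genes were called in place of 3860, with 13 of 26 ribosome biogenesis genes and 1 of 32 replication genes lower. Leaving out 1 pair gave 295 to 4729 called genes, and no gene called in both fits changed direction. The count was 295 without the SRF-RELA pair, 928 without SRF-ICA1L, 2410 without pMSCV and 4729 without SRF. Other scalings, filters and tools gave 3559 to 4323 genes, and adding replicates 3 gave 5243. DESeq2 called 21 mitotic and 22 sterol genes lower in place of 13 and 14, 4 genes in SRF-FOXO1 and SRF-PDGFRB and 25 for the interaction, where edgeR called 0. The cause of these differences was not tested. Of 171 named genes, 58 stayed on their side of the threshold without the SRF-RELA pair and 166 with DESeq2. Genes of a few counts per library, such as Heyl and Psmb8, are limited by depth to the bounds given.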

Other observations

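Replicates 3 and the other fusion lines gave further levels of Fos, which was not called between replicates 1 and 2, and of Nr4a1 and Nfkbia, which were higher. Fos, at 159 to 600 CPM in replicates 1 of the 4 lines, was at 1.45, 1.0, 3.43 and 1.73 CPM in their replicates 3. In SRF-FOXO1 it was at 5.14, 361 and 4.64 CPM in replicates 1, 2 and 3, and in SRF-PDGFRB at 186 and 2.71 CPM in replicates 1 and 2. Nr4a1 was at 18.1, 11.6, 10.8 and 9.56 CPM in replicates 3, at 20.9, 789 and 17.0 CPM in SRF-FOXO1 and at 578 and 12.1 CPM in SRF-PDGFRB. Nfkbia lay at 31.4 to 32.8 CPM in replicates 3, at 32.1, 286 and 44.9 CPM in SRF-FOXO1 and at 397 and 38.4 CPM in SRF-PDGFRB.

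Muscle differentiation genes differed between the libraries of SRF-PDGFRB. Myog, the factor that opens the differentiation programme, was at 0.230 and 85.5 CPM in replicates 1 and 2, and Myh3, embryonic myosin heavy chain, at 0.643 and 146 CPM. These values come from 1 library each.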
